A study of Mus musculus with 12 samples.

Results

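The genes described here are 7 genes that mark Schwann cell precursors and other peripheral glia: *Sox10*, *Foxd3*, *Erbb3*, *Cdh19*, *Mbp*, *S100b* and *Ngfr*. They were taken by name from the 23420 genes listed in both tables of counts, and each was compared between null and wild-type embryos of the same line. The RNA came from whole mouse embryos harvested 12.5 days into development (E12.5), 1 library per embryo and 3 embryos per group. In the *Carm1* line, on a C57BL/6 background, embryos homozygous for *Carm1*tm1Mtb (Carm1 null, a deletion of exons) were set against wild-type embryos. In the *Pax3* line, kept as a closed colony on a mixed background, embryos homozygous for *Pax3*Sp2h (Pax3 null, Splotch) were set against wild-type embryos. Neither allele is restricted to a tissue, and embryos came from intercrosses of heterozygous mice. Whether embryos of a group were littermates is not given in the sources used here. The lines differ in background and colony, so levels are compared across lines only as a description.

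Schwann cell precursors are neural crest cells that travel along growing nerves and later give rise to Schwann cells, and also to melanocytes and some autonomic neurons. The transcription factor SOX10 is needed for their identity and directly drives glial genes, among them *Erbb3*, the receptor for the neuregulin that axons display and that keeps these precursors alive. PAX3 acts earlier, in the dorsal neural tube and premigratory crest, and CARM1 is an arginine methyltransferase and transcriptional coactivator with PAX3 among its proposed substrates. The question behind the comparison of lines was whether the *Carm1* null embryo resembles the *Pax3* null embryo.

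In *Pax3* null embryos 4 of the 7 genes fell: *Sox10*, *Erbb3*, *Cdh19* and *Ngfr*. *Cdh19* was at 45.0% and *Sox10* at 53.9% of the wild-type level, *Erbb3* at 66.6% and *Ngfr* at 85.0%. *Foxd3*, *Mbp* and *S100b* did not pass the test in that line. In *Carm1* null embryos 0 of the 7 genes passed it, by edgeR and by DESeq2 alike, and 1 of them, *Mbp*, had an unadjusted *P* below 0.05. The background was 10.5% of 15724 genes tested that were lower in the *Pax3* line and 13.3% of 15811 genes tested that changed in the *Carm1* line (7.83% lower and 5.49% higher). Across the 7 genes the median log2 fold change was -0.23 in the *Pax3* line, against -0.0026 for all genes tested there, and 0.044 in the *Carm1* line, against 0.0014. All 7 genes passed the filter on low counts in both lines.

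**Figure D1:**
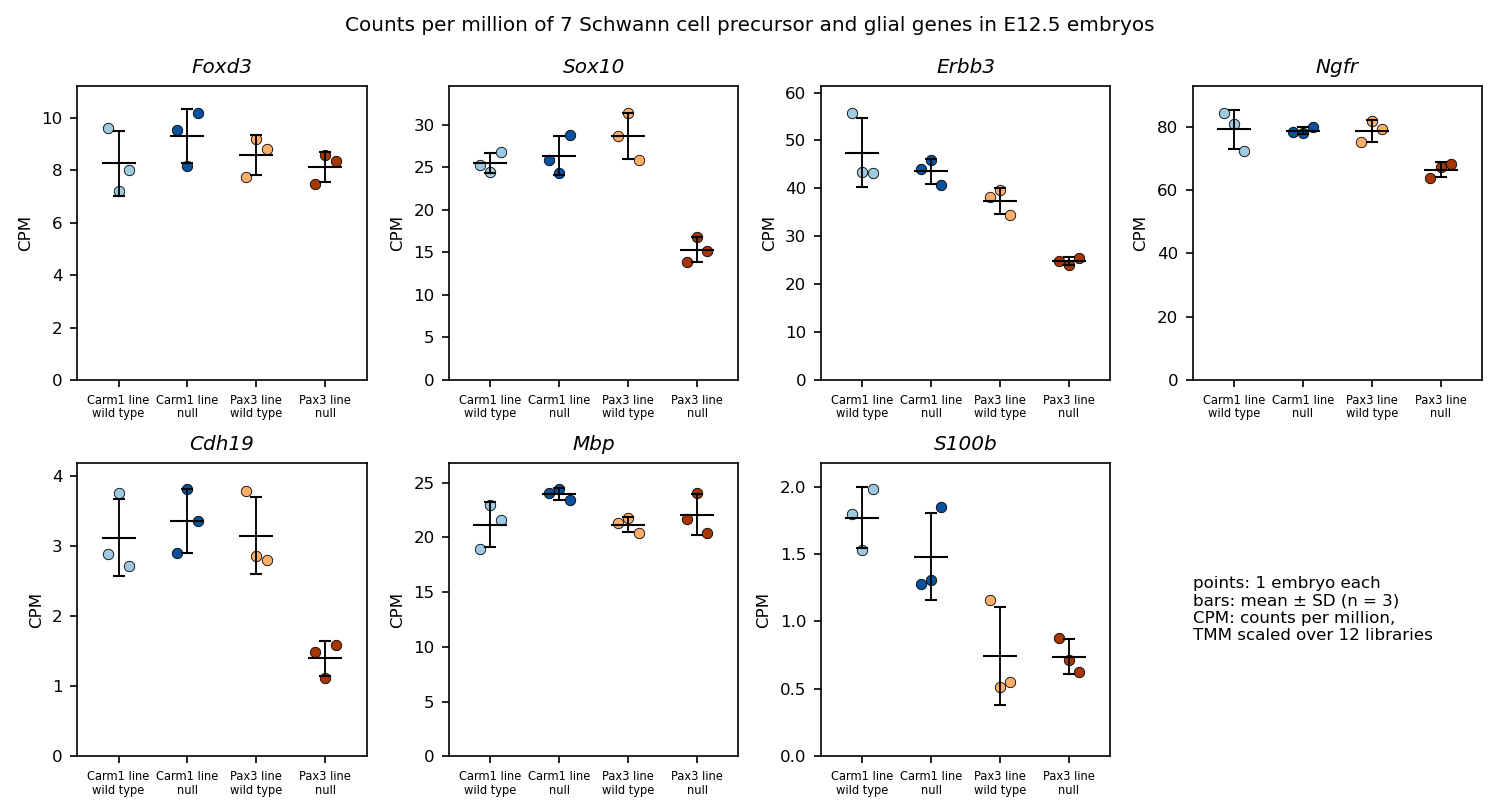
Scaled counts (CPM, y axis, linear from 0) of each gene in the 4 groups (x axis), with 1 point per embryo and the mean with SD as a bar (n = 3). The *Pax3* null points of *Sox10*, *Erbb3*, *Cdh19* and *Ngfr* lie below those of every other group, whereas those of *Foxd3* and *Mbp* overlap with wild type.

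Library totals lay between 17183344 and 23518692 counts. Levels are given as CPM, the counts scaled to library size with TMM factors over all 12 libraries. *Carm1* had 70.3 to 77.3 CPM in *Carm1* null and 139 to 153 CPM in wild-type embryos of its line. *Pax3* had 17.8 to 22.0 CPM in *Pax3* null and 24.6 to 30.7 CPM in wild-type embryos of its line, so transcripts of the mutant allele were still counted. *Pax3* was also 1.30-fold higher in *Carm1* null embryos (edgeR, FDR adjusted *P* = 0.0010). Y-linked genes were counted in 1 wild-type library of the *Carm1* line and, in the *Pax3* line, in 2 wild-type libraries and 1 null library, so the sexes were mixed. Since whole embryos were used, fewer glial cells and less RNA per glial cell cannot be told apart in any of the values below.

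The transcription factors come first. *Foxd3* encodes a forkhead factor of the premigratory crest that is kept in glial precursors, and it is also expressed in interneurons of the spinal cord. *Sox10* encodes the HMG-box factor of migrating crest and glia. *Foxd3* is a gene of 1 exon on the + strand of chromosome 4 from 99656299 to 99658622, where 89 nt of it overlap *Gm23366* on the same strand, and *Sox10* is at 79154908 to 79165240 of chromosome 15, - strand (GRCm38, the assembly of mm10).

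*Sox10* had 592, 550 and 611 counts in the wild-type libraries of the *Pax3* line and 317, 377 and 365 in the null libraries. Scaled to library size these were 28.7, 31.4 and 25.9 CPM against 13.9, 16.8 and 15.2 CPM. Each null library was below each wild-type library, which held for 20.3% of all genes tested in this line (39.9% lay apart in either direction). The log2 fold change was -0.89 with a 95% interval from -1.08 to -0.70 (edgeR, FDR adjusted *P* = 7.8e-08), the 65th smallest *P* of the line. *Sox10* in the *Carm1* line was at 25.9, 24.3 and 28.8 CPM in null embryos and at 25.3, 24.4 and 26.8 CPM in wild-type embryos, and the groups overlapped. That log2 fold change of 0.044 had an interval from -0.11 to 0.20, so a fall of the size seen in the *Pax3* line lies outside it.

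*Foxd3* had 160, 161 and 208 counts in *Pax3* wild-type and 170, 192 and 200 counts in *Pax3* null libraries. The CPM values were 7.75, 9.19 and 8.82 in wild-type and 7.47, 8.57 and 8.34 in null embryos, and they overlapped. Its log2 fold change was -0.068 (95% interval -0.32 to 0.18, edgeR FDR adjusted *P* = 0.73). The *Carm1* line gave 0.18 (-0.090 to 0.44, edgeR FDR adjusted *P* = 0.42). The mean there was 9.29 ± 1.01 CPM in null and 8.27 ± 1.23 CPM in wild type (SD, n = 3 each).

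A ratio of counts within a library does not depend on scaling between libraries. *Foxd3* had 27.0, 29.3 and 34.0 counts per 100 *Sox10* counts in *Pax3* wild-type libraries and 53.6, 50.9 and 54.8 in *Pax3* null libraries, with no overlap. The same ratio in the *Carm1* line was 36.8, 33.6 and 35.3 in null and 38.0, 29.5 and 29.8 in wild-type libraries. Because *Sox10* itself fell, this ratio separated the same way for 92.9% of the other genes tested in the *Pax3* line, so it says nothing particular about *Foxd3*.

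Promoter windows were looked up because PAX3 and SOX10 bind short DNA motifs. Of the 7 genes, 3 had an entry in the RefSeq promoter table (GRCm38.p6), *Foxd3*, *Ngfr* and *S100b*. The letters ACAAAG and ACAATG (cores bound by SOX factors) and GTCACG (a core bound by paired domains) were searched on both strands of the 300 bases of each window. *Foxd3* held GTCACG at 2 places, starting 229 and 219 bases before the gene's start, and none of the other letters searched. The first match shares 4 bases with a cyclic AMP response element and the second shares 4 with an E-box. Of 32851 windows, 8.22% held GTCACG, 18.7% ACAAAG and 12.6% ACAATG. *Ngfr*, which fell, and *S100b* held none of the 3. The upstream parts of a gene that did not pass the test and of a gene that fell are printed below, from 5′ to 3′ on the gene's own strand, with the matches in capitals. They are chr4:99656049-99656298 (+ strand) and chr11:95587736-95587948 (- strand).
Foxd3: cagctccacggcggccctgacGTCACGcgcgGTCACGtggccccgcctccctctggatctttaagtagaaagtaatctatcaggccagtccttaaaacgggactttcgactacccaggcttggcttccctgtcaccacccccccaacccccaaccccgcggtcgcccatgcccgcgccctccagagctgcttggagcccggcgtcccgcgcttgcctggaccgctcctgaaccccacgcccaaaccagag
Ngfr: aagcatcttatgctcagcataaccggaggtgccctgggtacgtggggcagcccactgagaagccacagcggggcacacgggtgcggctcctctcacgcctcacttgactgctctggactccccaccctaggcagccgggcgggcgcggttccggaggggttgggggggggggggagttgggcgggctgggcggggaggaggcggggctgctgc
A match is only a run of letters, and the lack of one concerns these windows alone.

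The receptors were *Erbb3* and *Ngfr*. *Erbb3* encodes the neuregulin receptor of crest-derived glia, which signals together with ERBB2, and it is also expressed in migrating muscle precursors. *Ngfr* encodes p75, the low-affinity neurotrophin receptor, a common surface marker for sorting crest cells that is also found on neurons and mesenchyme. *Erbb3* (chromosome 10, from 128567523 to 128589652) and *Ngfr* (chromosome 11, from 95568818 to 95587735) are both on the - strand, without an exon shared with another gene.

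*Erbb3* had 789, 696 and 810 counts in *Pax3* wild-type libraries and 566, 535 and 611 counts in *Pax3* null libraries. In CPM the wild-type embryos were at 38.2, 39.7 and 34.4 and the null embryos at 24.9, 23.9 and 25.5. All 3 null embryos were below all 3 wild-type embryos, and the null values were close together (SD 0.811 CPM). The log2 fold change was -0.59 with a 95% interval from -0.75 to -0.42 (edgeR, FDR adjusted *P* = 7.1e-06). For the *Carm1* line null embryos had 44.1, 45.9 and 40.8 CPM and wild-type embryos 55.8, 43.4 and 43.2 CPM. Wild-type replicate 1 stood above the other 5 libraries, the groups overlapped, and the log2 fold change of -0.11 (-0.30 to 0.070) became 0.011 without that replicate.

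*Ngfr* had 75.0, 81.9 and 79.3 CPM in *Pax3* wild-type embryos and 63.7, 67.2 and 68.3 CPM in *Pax3* null embryos. The groups did not overlap, but the fall was the smallest of the 4, with a log2 fold change of -0.23 (95% interval -0.36 to -0.11, edgeR FDR adjusted *P* = 0.0045). *Ngfr* in the *Carm1* line averaged 78.8 ± 0.988 CPM in null and 79.1 ± 6.24 CPM in wild type (SD, n = 3 each). There the log2 fold change was -0.0061 with an interval from -0.12 to 0.10, and the groups overlapped.

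*Cdh19* encodes a type II cadherin that is used as a marker of Schwann cell precursors. Its position is chromosome 1 from 110888326 to 110977584 (- strand). The *Pax3* wild-type libraries held 78, 50 and 66 counts and the null libraries 34, 25 and 38. As CPM these were 3.78, 2.86 and 2.80 in wild-type and 1.49, 1.12 and 1.59 in null embryos, so the groups lay apart although the counts were low. Its log2 fold change was -1.15, with a 95% interval from -1.63 to -0.68 (edgeR, FDR adjusted *P* = 5.8e-04). For the *Carm1* line, 52, 67 and 56 counts in null and 48, 86 and 55 counts in wild-type libraries gave overlapping groups and a log2 fold change of 0.091 (-0.32 to 0.50).

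*Mbp* and *S100b* are known from later glia. *Mbp* encodes myelin basic protein, and the same gene also produces Golli transcripts from an upstream promoter in neurons and blood cells, which counts per gene do not separate. *S100b*, on chromosome 10 from 76253853 to 76261159 (+ strand), encodes a calcium-binding protein of Schwann cells and astrocytes that is also made in cartilage and pigment cells. It overlaps *Dip2a* on the other strand, with no exon in common.

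*Mbp* had 21.3, 21.8 and 20.4 CPM in *Pax3* wild-type and 21.7, 24.1 and 20.4 CPM in *Pax3* null embryos, and the groups overlapped. The log2 fold change was 0.073 (95% interval -0.10 to 0.25, edgeR FDR adjusted *P* = 0.58). *Mbp* in the *Carm1* line was at 24.1, 24.4 and 23.4 CPM in null and 18.9, 23.0 and 21.6 CPM in wild-type embryos. These groups did not overlap, as for 30.0% of all genes tested in that line, and the log2 fold change was 0.17 (0.0027 to 0.34). It was not past the threshold (edgeR, FDR adjusted *P* = 0.18).

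*S100b* had the fewest counts, 9 to 24 in the *Pax3* line and 23 to 40 in the *Carm1* line. *Pax3* wild-type libraries held 24, 9 and 13 counts and null libraries 20, 16 and 15. The log2 fold change in that line, -0.0034, had an interval from -0.78 to 0.77, so at this depth a change as large as that of *Erbb3* could not be detected. The log2 fold change in the *Carm1* line was -0.26 with an interval from -0.83 to 0.32 (edgeR, FDR adjusted *P* = 0.62).

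**Figure D2:**
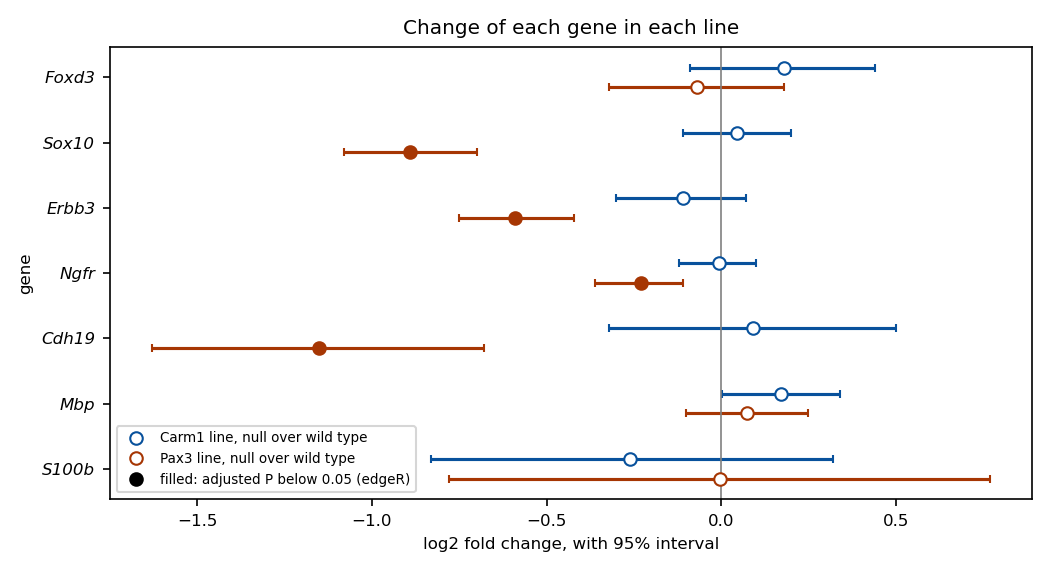
Log2 fold change of null over wild type (x axis) for each gene (y axis), with its 95% interval from edgeR, in the *Carm1* line (blue) and the *Pax3* line (brown), filled where the FDR adjusted *P* was below 0.05. The filled points are *Sox10*, *Erbb3*, *Ngfr* and *Cdh19* in the *Pax3* line, and no point of the *Carm1* line is filled.

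Both lines were then compared directly, as the *Carm1* effect minus the *Pax3* effect in 1 fit of all 12 libraries. By edgeR 4 of the 7 genes differed between the lines, all with a higher value in the *Carm1* line, against 8.65% of 16292 genes tested (19.1% differed in either direction). The difference was 0.95 on the log2 scale for *Sox10* (95% interval 0.69 to 1.21, edgeR FDR adjusted *P* = 3.5e-06) and 1.26 for *Cdh19* (0.64 to 1.87, edgeR FDR adjusted *P* = 0.0035). It was 0.48 for *Erbb3* (0.24 to 0.71, edgeR FDR adjusted *P* = 0.0037) and 0.24 for *Ngfr* (0.075 to 0.40, edgeR FDR adjusted *P* = 0.034). The call of *Ngfr* was lost when any of 7 of the 12 libraries was left out (edgeR FDR adjusted *P* of at most 0.13, without *Carm1* wild-type replicate 3). For *Foxd3* the difference was 0.26 (-0.10 to 0.61), for *Mbp* 0.11 (-0.14 to 0.36) and for *S100b* -0.24 (-1.21 to 0.72), none past the threshold.

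Ordered by level across the 4 groups, *Sox10* ran from *Pax3* wild type (28.7 ± 2.75 CPM) through *Carm1* null (26.3 ± 2.27) and *Carm1* wild type (25.5 ± 1.20) to *Pax3* null (15.3 ± 1.46, SD, n = 3 each). Only the last step had no overlap between neighbours. The last step was also the one without overlap for *Cdh19* and *Ngfr*. For *Erbb3* the *Carm1* null and *Pax3* wild-type embryos lay apart as well, and for *Foxd3* and *Mbp* every pair of neighbours overlapped. *S100b* separated by line, with 1.48 ± 0.323 and 1.77 ± 0.226 CPM in *Carm1* null and wild type and 0.739 ± 0.128 and 0.743 ± 0.364 CPM in *Pax3* null and wild type (SD, n = 3 each). Per kilobase of exon, the wild-type embryos of the *Carm1* line had 23.0 CPM of *Ngfr*, 8.37 of *Sox10*, 7.89 of *Erbb3*, 3.56 of *Foxd3*, 2.50 of *Mbp*, 1.19 of *S100b* and 0.729 of *Cdh19*.

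Other genes of peripheral glia went both ways in *Pax3* null embryos. Of 15 genes listed, 14 were tested, and 4 were lower and 3 higher, against 10.5% and 14.0% of all genes tested. The lower genes were *Gfra3* (log2 fold change -0.80), the artemin co-receptor of crest-derived cells, *Itga4* (-0.79), an integrin of migrating crest, *Moxd1* (-0.48), a monooxygenase-like crest marker, and *Sox8* (-0.43), the close relative of *Sox10*. The higher genes were *Sox2* (0.29), *Pou3f1* (0.28) and *Fabp7* (0.20), which are also abundant in the neural tube. A whole embryo includes tissues other than peripheral glia, and their part in the rises and falls of this list was not tested. The median log2 fold change over these 14 was 0.15. In *Carm1* null embryos 2 of the 14 were higher, *Fabp7* (0.37) and *Sox2* (0.33), and 1 was lower, the adhesion molecule gene *L1cam* (-0.25). The shares of all genes tested in that line were 5.49% higher and 7.83% lower. By edgeR 8 of the 14 had an unadjusted *P* below 0.05 in the *Carm1* line and 10 in the *Pax3* line. *Mag*, which encodes myelin-associated glycoprotein, was too low to be tested within either line.

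Of 12 neuregulin and ErbB genes, 2 were lower in the *Pax3* line, against 10.5% of all genes tested, and none was higher. The lower ones were *Egfr* (log2 fold change -0.32) and the neuregulin-processing protease *Bace1* (-0.15). The ligand gene *Nrg1* had -0.22 (95% interval -0.48 to 0.051) and *Erbb2*, the partner of *Erbb3*, had 0.0028 (-0.12 to 0.13). Lower in the *Carm1* line were 2 of the 12, *Nrg3* (-0.69) and *Egfr* (-0.26), against 7.83% of all genes tested. These counts of 2 fell to 0 in some alternatives, in the *Pax3* line with length and GC offsets and without *Pax3* wild-type replicate 1 or null replicate 1, and in the *Carm1* line without null replicate 1.

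Of 12 neurotrophin genes, 1 passed the test in the *Pax3* line, against 24.5% of all genes tested. This was *Ngfrap1* (now *Bex3*), encoding a p75-associated protein, which was higher (log2 fold change 0.45). The count was 0 without *Pax3* null replicate 2 and 4 in 1 fit of all 12 libraries. *Ntrk3*, the NT-3 receptor, had -0.025 in that line (95% interval -0.22 to 0.17). By edgeR 0 of the 12 were called in the *Carm1* line (1 by DESeq2, and 1 with an unadjusted *P* below 0.05). Of all genes tested in that line, edgeR called 13.3%.

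Of 14 regulators of the neural crest, 8 differed between the lines by edgeR (6 with a higher value in the *Carm1* line and 2 with a lower one). Of all genes tested, 19.1% differed, 8.65% with a higher value and 10.5% with a lower one. *Ednrb*, the endothelin receptor of glial and pigment precursors, changed in opposite directions, with a log2 fold change of -0.37 in *Pax3* null and 0.30 in *Carm1* null embryos. Also lower in the *Pax3* line were *Zeb2* (-0.51), *Tfap2b* (-0.48) and *Tfap2a* (-0.46), and higher were *Msx1* (0.48) and *Twist1* (0.42), factors of crest-derived and other mesenchyme. Of all genes tested there, 10.5% were lower and 14.0% higher. *Pax7* (0.36), *Ednrb* and *Zic1* (0.21) were higher and *Tfap2b* (-0.20) lower in the *Carm1* line. Of all genes tested in that line, 5.49% were higher and 7.83% lower.

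**Figure D3:**
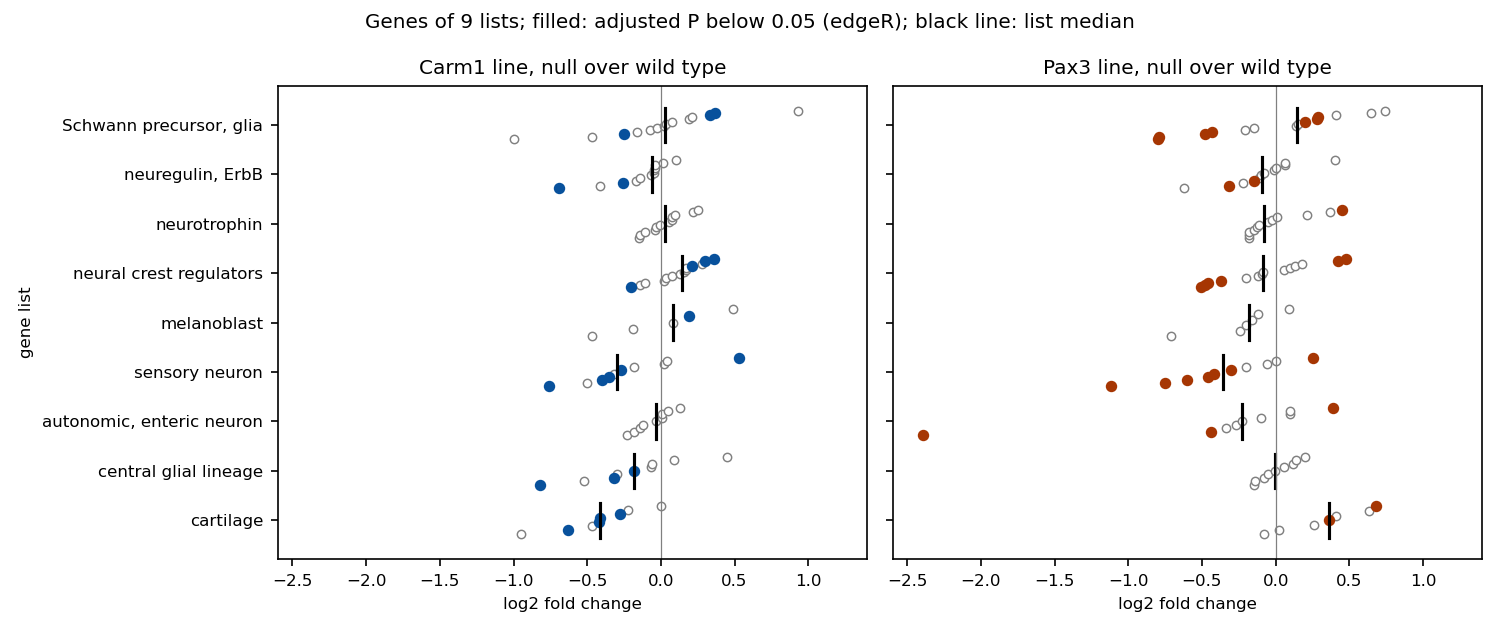
Log2 fold change (x axis) of single genes in 9 lists (y axis), 1 point per gene tested, in the *Carm1* line (left) and the *Pax3* line (right), filled where the FDR adjusted *P* by edgeR was below 0.05, with the list median as a black line. In the *Pax3* line the lowest point is *Dbh* among autonomic genes (-2.39).

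Genes known from neighbouring cell types were read in the same way. Of 10 genes of sensory neurons, 6 were lower in *Pax3* null embryos, against 10.5% of all genes tested. They were *Prrxl1* (log2 fold change -1.12), *Scn9a* (-0.75), *Runx3* (-0.60), *Pou4f1* (-0.46), *Isl1* (-0.42) and *Runx1* (-0.30). The study used *Isl1* as a marker of the second heart field, so not every gene of this list is particular to sensory neurons. In the same list 1 gene was higher, the neurogenic factor *Neurog2* (0.25). The summed level of that list was 160 to 163 CPM in null and 193 to 196 CPM in wild-type embryos. *Carm1* null embryos had 4 of these 10 lower, *Avil* (-0.76), *Runx1* (-0.40), *Prph* (-0.35) and *Scn9a* (-0.27), against 7.83% of all genes tested. *Neurog1* (0.53) was higher there, and the sums were 195 to 198 CPM in null and 210 to 222 CPM in wild type. Of 9 autonomic and enteric genes, 2 were lower in the *Pax3* line, against 10.5% of all genes tested, and 1 was higher, against 14.0%. Lower were *Dbh*, the noradrenaline-making enzyme (-2.39), and *Ret*, the GDNF receptor (-0.44), and higher was *Hand2* (0.39). By edgeR 0 of these 9 were called in the *Carm1* line (0 by DESeq2, and 1 with an unadjusted *P* below 0.05). Of 6 melanoblast genes tested in the *Pax3* line, 0 passed by edgeR or DESeq2 and 0 had an unadjusted *P* below 0.05, with *Dct* at -0.24 (95% interval -0.69 to 0.20) and *Mitf* at 0.093 (-0.23 to 0.42), and the sums were 53.3 to 60.0 CPM in null and 59.2 to 69.8 CPM in wild-type embryos. The *Carm1* line had 1 of 5 higher, the receptor gene *Kit* (0.19), against 5.49% of all genes tested. Of the 5, 2 had fold changes below 0. Among these was *Dct* (-0.47, 95% interval -0.87 to -0.06), which was not called. *Kit* made up most of the sums of this list, with a mean of 48.4 CPM in *Pax3* wild-type embryos, so they mainly show *Kit*. By edgeR 0 of 9 genes of the central glial lineage were called in the *Pax3* line (0 by DESeq2, and 2 with an unadjusted *P* below 0.05), with *Olig2* at 0.20 (-0.055 to 0.45). Of the same 9, 3 were lower in the *Carm1* line, against 7.83% of all genes tested: *Gfap* (-0.82), *Nfia* (-0.32) and *Slc1a3* (-0.18). This count of 3 became 1 without null replicate 3 or without wild-type replicate 2. Cartilage genes, read because cartilage also makes *S100b*, were higher in 2 of 7 cases (*Col9a1* 0.36, *Col11a2* 0.68) in the *Pax3* line, against 14.0% of all genes tested. In the *Carm1* line 4 of 8 were lower, against 7.83%. Their summed level was 707 to 830 CPM in *Pax3* null and 543 to 714 CPM in *Pax3* wild-type embryos. In the *Carm1* line it was 795 to 812 CPM in null and 774 to 989 CPM in wild-type embryos. *Col2a1*, not called in either line, made up most of these sums, with a mean of 490 CPM in *Pax3* wild-type embryos. Over all 9 lists, 30.1% of 93 genes tested were called in the *Pax3* line (24.5% of all genes) and 23.7% in the *Carm1* line (13.3% of all genes). The part of these other cell types in the changes of the 7 genes was not tested.

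For each gene the most similar pattern over the 12 libraries was sought among 14790 other genes with at least 1 CPM on average, as Pearson's r of log2 CPM centred within each line. This describes likeness only, since the libraries share the contrast of null and wild type. *Sox10* was most like *Actg1* (0.958), *Tlx2* (0.957), *AI314180* (0.953), *Kcnh1* (0.949) and *Arhgap28* (0.945). In the *Pax3* line the log2 fold change was -0.26 for *Actg1*, -0.21 for *AI314180*, -0.82 for *Kcnh1* and -0.18 for *Arhgap28*. For *Tlx2*, a homeobox gene of crest-derived ganglia, it was -1.49. *Erbb3* was most like *Cdh15* (0.962), *Cdh19* like *Brwd3* (0.965), *Ngfr* like *Mast2* (0.935), *Mbp* like *Ngef* (0.925), *S100b* like *Nr4a3* (0.896) and *Foxd3* like *Cnr2* (0.880). Among the 7 genes themselves, *Sox10* had an r of 0.830 with *Erbb3* and 0.809 with both *Cdh19* and *Ngfr*, but 0.337 with *Foxd3* and -0.108 with *Mbp*.

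*Cdh15* encodes the cadherin of myoblasts, and after it had been seen muscle genes were read beside *Erbb3*. In the *Pax3* line *Myod1* had a log2 fold change of -1.28, *Myog* of -1.09, *Cdh15* of -1.06, *Myf5* of -0.75 and *Met* of -0.52. These were all called lower by edgeR, against 10.5% of all genes tested, while *Lbx1* had -0.20 (95% interval -0.48 to 0.073). Of these 6 muscle genes, only *Myog* (-0.26) was called in the *Carm1* line, where 7.83% of all genes tested were lower. How much of the fall of *Erbb3* came from muscle precursors was not tested.

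Within libraries of the same sex in the *Pax3* line, the difference of mean log2 CPM was -0.90 for *Sox10* both among the 3 libraries with Y-linked counts and among the 3 without. For *Erbb3* it was -0.53 and -0.65, for *Ngfr* -0.24 and -0.20, and for *Cdh19* -0.80 and -1.48. Short genes ran higher in *Pax3* null embryos, with a median log2 fold change of 0.16 in the lowest quartile of transcript length (up to 2175 nt) and -0.099 in the highest (from 4784 nt). When length and GC offsets were added the 4 genes were still called lower, with log2 fold changes of -1.07 for *Sox10*, -1 for *Cdh19*, -0.52 for *Erbb3* and -0.35 for *Ngfr*, and *Foxd3* moved from -0.068 to -0.32 (edgeR, FDR adjusted *P* = 0.058).

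**Figure D4:**
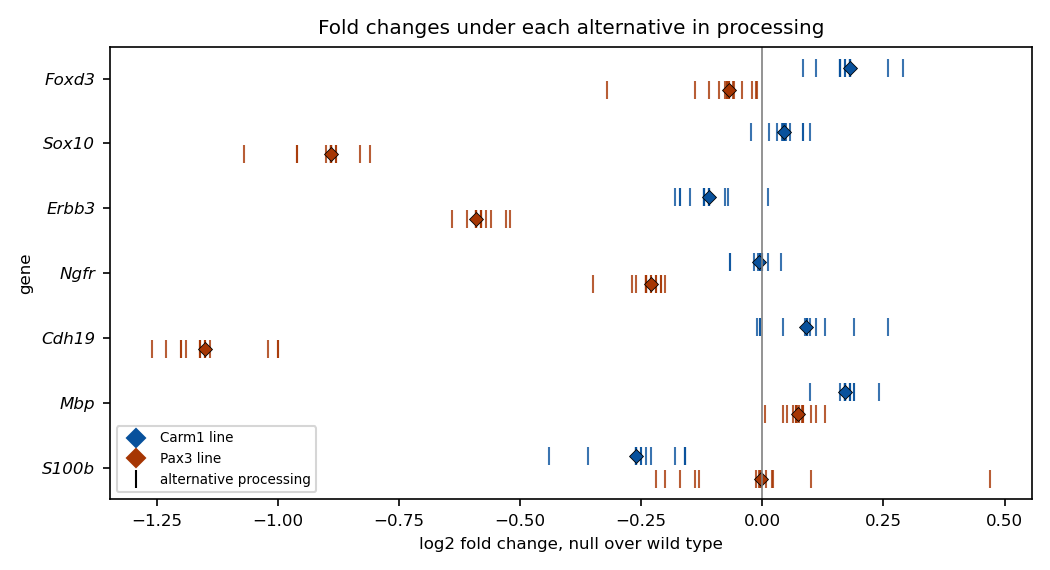
Log2 fold change of null over wild type (x axis) of each gene (y axis) in the *Carm1* line (blue) and the *Pax3* line (brown), with the reported value as a diamond and each alternative in processing as a tick. In the *Pax3* line all ticks of *Sox10* (-1.07 to -0.81), *Erbb3* (-0.64 to -0.52), *Cdh19* (-1.26 to -1) and *Ngfr* (-0.35 to -0.20) lie below 0.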

How the data were processed

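RNA sequencing was done on polyadenylated RNA of 12 whole embryos. According to the submitters' processing notes and the methods, STAR alignments to mm10 were summarized over exons by featureCounts, and the deposited values are raw counts per gene, with no normalization and no pooling. Tool versions, annotation release and strand setting are not given in the sources used here. Sample titles gave the group and the replicate number.

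Counts of each line were tested with edgeR 4.0.16 (R 4.3.3): filterByExpr, TMM, robust quasi-likelihood test, Benjamini-Hochberg adjustment over all genes tested (FDR), threshold 0.05. The contrast between lines was 1 fit of 12 libraries. Intervals are 95% and use the standard error implied by the F statistic. The exact permutation test of 1 gene cannot go below 0.1 with 3 against 3. Replicates are separate embryos, and no pair was identical (chi-square per degree of freedom 3.07 to 23.2). Positions, exon lengths and transcript GC content come from GENCODE M21 (GRCm38), which matched 21777 of 23420 symbols as written and 1248 by an older symbol.

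The members, the 9 lists and the alternatives were chosen with earlier results of these data known. Named are the 7 genes, the targeted genes, genes of the lists, and the genes most alike in pattern (5 for *Sox10*, 1 for each other). Some genes of the peripheral glia and neurotrophin lists are not reported here, irrespective of their values, and the counts and medians of those lists leave them out and differ from those of the complete lists. The muscle genes and *Tlx2* were added after values were seen. Alternatives were DESeq2 1.42.0 (default settings), RLE and upper-quartile factors, no filter, at least 10 counts in every library, 1 fit of 12 libraries, the replicate number as a block, a term for libraries with at least 100 Y-linked counts, length and GC offsets (splines with 5 degrees of freedom), and leaving out each library. Tested on simulated counts, edgeR recovered 75.0% of 100 genes changed by 0.5 and 97.0% of 99 changed by 1 (log2) among 15722 genes in the *Pax3* line, 78.0% of 100 and 96.9% of 98 among 15809 in the *Carm1* line, and 47.5% and 79.8% of 99 each among 16242 for the difference between lines. Of the calls, 5.52%, 5.98% and 7.35% were on unchanged genes. The simulated counts were drawn with the same dispersion for every gene and without a length trend. These shares therefore need not hold for the real counts, where genes differ in spread.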

Additional observations from a re-analysis of the deposited data

Results flagged for a closer look

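Effects that differed between the lines in edgeR's test of the difference itself (FDR adjusted *P* below 0.05) are listed here as the *Carm1* effect minus the *Pax3* effect on the log2 scale. Of the 7 genes these were *Sox10* (0.95), *Erbb3* (0.48), *Cdh19* (1.26) and *Ngfr* (0.24). Among other genes of peripheral glia they were *Gfra3* (0.78), *Sox8* (0.48), *Moxd1* (0.68) and *Itga4* (0.72), and among neuregulin and neurotrophin genes *Adam17* (0.22) and *Ngfrap1* (-0.37). Regulators of the neural crest gave *Tfap2a* (0.64), *Tfap2b* (0.28), *Ets1* (0.28), *Twist1* (-0.39), *Msx1* (-0.34), *Pax7* (0.45), *Ednrb* (0.69) and *Zeb2* (0.41). Sensory neuron genes gave *Pou4f1* (0.51), *Isl1* (0.46), *Neurog1* (0.60), *Neurog2* (-0.42) and *Scn9a* (0.49), autonomic genes *Dbh* (2.26) and *Hand2* (-0.33), and the melanoblast list *Kit* (0.35). The central glial lineage gave *Slc1a3* (-0.31) and *Nfia* (-0.23), and cartilage *Col9a1* (-0.63), *Matn1* (-1.57) and *Col11a2* (-1.09). A positive value means that the gene was relatively higher in *Carm1* null than in *Pax3* null embryos, each against its own wild type. Flagged in this way were 4 of the 7 genes and 27 of 95 listed genes tested, against 19.1% of all 16292 genes tested. No explanation for these differences was tested.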

How the results depend on the processing

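*Sox10*, *Erbb3*, *Cdh19* and *Ngfr* were called lower in the *Pax3* line in all 15 alternatives, and 0 genes were called in the *Carm1* line in all 15. Between the lines 3 to 5 of the 7 genes were called over 20 alternatives, 5 with length and GC offsets, where *Foxd3* was added (0.48, edgeR FDR adjusted *P* = 0.038). *Ngfr* lost that call without any of *Carm1* null replicates 1, 2 and 3, *Carm1* wild-type replicate 3, *Pax3* wild-type replicates 2 and 3, and *Pax3* null replicate 1 (0.18 to 0.25 on the log2 scale, edgeR FDR adjusted *P* = 0.052 to 0.13). Leaving out 1 library gave 1224 to 2290 called genes in the *Carm1* line (2106 in all 6 libraries) and 2454 to 4103 in the *Pax3* line (3851). With length and GC offsets 56.5% of calls in the *Carm1* line were higher, against 41.2%.

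Signs changed only for fold changes that were not called. In the *Carm1* line *Sox10* was -0.023 without null replicate 3, *Erbb3* 0.011 without wild-type replicate 1 (-0.18 to 0.011 over the libraries left out), *Ngfr* 0.039 and 0.012 without wild-type replicates 1 and 2 (-0.067 to 0.039), and *Cdh19* -0.0044 with a term for Y-linked counts, -0.011 without null replicate 2 and -0.0043 without wild-type replicate 3 (-0.011 to 0.26). In the *Pax3* line *S100b* was 0.0067 without a filter, 0.022 with the replicate block, 0.47 without wild-type replicate 1, and 0.019 and 0.10 without null replicates 2 and 3 (-0.20 to 0.47). At 9 to 24 counts its direction is not resolved. *S100b* could not be fitted in that line, or between the lines, with at least 10 counts in every library.

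Same-numbered null and wild-type libraries did not all deviate together (r of -0.041, 0.00093 and -0.042 in the *Carm1* line and 0.14, -0.092 and 0.23 in the *Pax3* line), so the numbers were not taken to pair embryos. The fit with the replicate block called 0 and 4 of the 7 genes, and 1787 and 4177 of all genes, in the *Carm1* and *Pax3* lines.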
